A study of Homo sapiens with 6 samples.

Results

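The ATG8 family of autophagosome proteins was examined in RNA-seq of HCT116, a human colorectal carcinoma cell line. The members were the 6 listed gene symbols GABARAP, GABARAPL1, GABARAPL2, MAP1LC3A, MAP1LC3B and MAP1LC3B2, each matched to 1 gene identifier among the 58395 genes in the files. The family was chosen on the differences in level between shSTBD1 and shControl in these same libraries, which were already known. The members' differences are therefore given as a description, with no p-value, and nothing is read from how many of them passed a threshold. All cells were HCT116 infected with a lentiviral hairpin, selected in puromycin and grown in DMEM with 10% fetal bovine serum, so the controls carried a hairpin too. The shControl group held 3 biological replicates with a non-target hairpin. The shSTBD1 group held 3 biological replicates with a hairpin against STBD1, an endoplasmic reticulum protein that binds glycogen and is proposed to be the receptor for its autophagy. Each group had 1 hairpin sequence, so a difference between the hairpins and a difference in STBD1 cannot be told apart. Whether a line was a single clone, or the replicates came from separate infections, was not given in the sources used here. The errors given below thus describe spread between libraries of each group.

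ATG8 proteins are small ubiquitin-like proteins that are joined to phosphatidylethanolamine in the autophagosome membrane. An ATG4 protease first trims the C terminus to expose a glycine. ATG7 then activates the protein, ATG3 carries it, and the ATG12-ATG5-ATG16L1 complex directs it to the lipid. On the membrane, ATG8 proteins recruit cargo receptors through short LC3-interacting region (LIR) motifs. The family splits into the LC3 branch and the GABARAP branch, and STBD1 holds a LIR motif that binds the GABARAPL1 protein.

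The end of each coding sequence is shown because it holds the site of ATG4 processing. Each line gives the last 60 coding bases in GENCODE 44 on hg38, stop codon included, with the last glycine codon in capitals.
GABARAP: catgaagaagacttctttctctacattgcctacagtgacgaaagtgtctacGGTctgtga
GABARAPL1: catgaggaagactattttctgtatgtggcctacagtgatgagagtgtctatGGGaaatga
GABARAPL2: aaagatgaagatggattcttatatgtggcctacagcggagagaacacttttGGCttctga
MAP1LC3A: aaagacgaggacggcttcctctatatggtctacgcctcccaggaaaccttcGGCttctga
MAP1LC3B: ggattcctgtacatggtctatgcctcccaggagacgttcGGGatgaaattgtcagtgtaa
MAP1LC3B2: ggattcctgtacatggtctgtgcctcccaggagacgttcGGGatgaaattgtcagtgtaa

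The glycine was codon 116 in GABARAP, GABARAPL1 and GABARAPL2, and codon 120 in MAP1LC3A, MAP1LC3B and MAP1LC3B2. In the first 4 genes shown, 1 codon followed it before the stop. In MAP1LC3B and MAP1LC3B2, 5 codons followed it.

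MAP1LC3B and MAP1LC3B2 were the closest pair, with 376 of 378 coding bases identical (99.5%). The next closest were GABARAP and GABARAPL1 at 76.8%, then MAP1LC3A and MAP1LC3B at 73.5%. GABARAP and GABARAPL2 shared 64.1%. Pairs across the LC3 and GABARAP branches shared 51.9% to 61.5%. Both differences between MAP1LC3B and MAP1LC3B2 are shown in capitals in windows of 40 coding bases, because only these bases and the untranslated ends separate the reads of the pair.
MAP1LC3B, coding bases 10 to 49: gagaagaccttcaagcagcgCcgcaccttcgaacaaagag
MAP1LC3B2, coding bases 10 to 49: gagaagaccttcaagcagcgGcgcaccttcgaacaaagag
MAP1LC3B, coding bases 318 to 357: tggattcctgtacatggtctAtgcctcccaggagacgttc
MAP1LC3B2, coding bases 318 to 357: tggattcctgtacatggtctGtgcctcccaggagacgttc

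Counted from the first base of the start codon, with the MAP1LC3B base first, the differences were C30G, which is synonymous, and A338G, which changes codon 113. Between them the genes were identical over 307 bases.

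The 6 genes lie apart on hg38. GABARAP occupies 7240008 to 7242449 on the minus strand of chromosome 17. GABARAPL1 occupies 10212458 to 10223128 on the plus strand of chromosome 12, and GABARAPL2 occupies 75566375 to 75577881 on the plus strand of chromosome 16. MAP1LC3A lies at 34546854 to 34560345 on the plus strand of chromosome 20. MAP1LC3B lies at 87383953 to 87404779 on the plus strand of chromosome 16, and MAP1LC3B2 at 116548105 to 116576606 on the plus strand of chromosome 12. The canonical transcript had 4 exons in each gene except MAP1LC3B2, which had 2.

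The libraries held 17689097 to 21668274 expected counts, and 15566 genes were tested after a filter on low counts. STBD1 was measured at 16.2, 15.7 and 14.4 CPM (counts scaled to library size) in the shControl libraries and at 11.6, 9.06 and 9.18 CPM in the shSTBD1 libraries. The groups did not overlap, and STBD1 fell by 0.64 ± 0.098 (SE) on the log2 scale, to 0.642 of its control level (edgeR quasi-likelihood test, Benjamini-Hochberg adjusted p = 0.00029). With limma on log2(TPM + 1) its adjusted p was 0.065, and over all 15 alternatives it ran from 6.59e-10 to 0.067. The epithelial markers EPCAM, CDH1, KRT8, KRT18 and KRT19 were present in every library, from 18.4 TPM for CDH1 to 1485 TPM for KRT8. TPM is a level per transcript length. Their summed level was 2851 to 2885 TPM in shControl and 3236 to 3372 TPM in shSTBD1. The leukocyte markers PTPRC and CD3E were at 0 in all 6 libraries, and PECAM1, COL1A2 and DCN reached at most 0.34 TPM. COL1A1 stood at 14.6 to 20.6 TPM. The 6 markers of other cells summed to 14.8 to 19.6 TPM in shControl and 17.1 to 21.0 TPM in shSTBD1. The part of these marker levels in the results was not tested.

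GABARAP was the most abundant member per length. Its level was 144, 172 and 143 TPM in the shControl libraries and 255, 239 and 223 TPM in the shSTBD1 libraries. GABARAPL2 followed with 48.6, 56.1 and 50.6 TPM in shControl and 56.1, 59.1 and 57.1 TPM in shSTBD1. MAP1LC3B, the LC3 used most widely as an autophagosome marker, came next. It had 39.7, 40.4 and 43.3 TPM in shControl and 48.3, 46.2 and 44.2 TPM in shSTBD1. GABARAPL1 came after it, with 21.0, 25.0 and 24.6 TPM in shControl and 32.9, 23.7 and 30.9 TPM in shSTBD1. MAP1LC3B2 was near the bottom, with 2.53, 2.63 and 2.93 TPM in shControl and 2.88, 1.66 and 3.84 TPM in shSTBD1. MAP1LC3A was the lowest, at 0 to 0.19 TPM. This order was the same in all 6 libraries. Within each group the TPM ranges of neighbouring members in this order did not overlap.

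The order depended on the division by length. The effective length by which GABARAP was divided was 426 to 470 bases, against 1319 bases in its canonical transcript. For MAP1LC3B it was 2225 to 2348 bases, against 2147. In CPM, which is not divided by length, GABARAP ranked first in 3 libraries only, and these were the shSTBD1 libraries. MAP1LC3B ranked first in the 3 shControl libraries. GABARAPL2 was above GABARAPL1 in 3 of 6 libraries in CPM and in all 6 in TPM.

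MAP1LC3A held 0 to 3 expected counts per library, which is at or under the 3-count floor of 0.1385 to 0.1696 CPM, so no fold is given for it. The other LC3 gene, MAP1LC3C, also held 0 to 3 expected counts. GABARAPL3 and MAP1LC3P, processed copies of family genes, held at most 1 count in any library. MAP1LC3BP1 and the antisense gene GABARAPL1-AS1 were at 0 counts throughout. Reads of the family thus came almost entirely from the other 5 members. Of these, MAP1LC3B2 gave few, with a mean share of the family in CPM of 0.455% in shControl and 0.366% in shSTBD1.

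GABARAP also had the widest separation between the hairpins. Normalised to library size, it was measured at 57.2, 62.8 and 58.5 CPM in shControl. In shSTBD1 it was measured at 96.6, 95.4 and 92.6 CPM. All 3 shSTBD1 libraries were above all 3 shControl libraries. The log2 fold change was 0.67 ± 0.042 (SE, 3 against 3 libraries), or 1.59-fold. Of the 15566 tested genes, 202 had a larger log2 fold change in the same direction.

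GABARAPL1, whose protein binds the LIR motif of STBD1, was measured at 29.9, 33.8 and 32.4 CPM in shControl. Its shSTBD1 libraries had 36.1, 35.1 and 40.5 CPM. The groups did not overlap in CPM, and the log2 fold change was 0.21 ± 0.064 (SE). In TPM, shSTBD1 2 (23.7) fell among the shControl libraries, so the groups overlapped on that scale. The effective length used for GABARAPL1 was 1246, 1655 and 1473 bases in shSTBD1 1, 2 and 3, and 1514 to 1593 bases in shControl. The part of these lengths in the overlap was not tested. GABARAPL1 means were 23.5 ± 2.22 TPM in shControl and 29.2 ± 4.83 TPM in shSTBD1 (SD, n = 3).

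GABARAPL2 had 32.7, 36.3 and 32.4 CPM in shControl and 35.7, 38.9 and 37.7 CPM in shSTBD1. The library shControl 2 lay above shSTBD1 1, so the groups overlapped. Its log2 fold change was 0.15 ± 0.058 (SE). In TPM its means were 51.8 ± 3.90 in shControl and 57.4 ± 1.52 in shSTBD1 (SD, n = 3), again with overlap.

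MAP1LC3B had 83.1, 81.2 and 85.5 CPM in shControl and 94.6, 95.2 and 90.9 CPM in shSTBD1. The groups did not overlap in CPM or in TPM. Its log2 fold change was 0.17 ± 0.038 (SE), or 1.12-fold. MAP1LC3B2 had 0.935, 0.910 and 1.02 CPM in shControl and 0.984, 0.552 and 1.36 CPM in shSTBD1. Its shSTBD1 libraries lay on both sides of the shControl range, and the log2 fold change was 0.01 ± 0.34 (SE). At 12.1 to 27.0 expected counts per library, a MAP1LC3B2 difference of the size of this error could not be told from 0. Differences larger than this error could also be missed at this depth.

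Of the 6 members, 5 passed the filter on low counts. In the fit across all tested genes, 3 of them (GABARAP, GABARAPL1 and MAP1LC3B) were past an adjusted p of 0.05 and higher in shSTBD1, beside 8.22% of all tested genes. The same 3 had shSTBD1 libraries that were all above the shControl libraries, beside 17.4% of tested genes. Both counts come from the contrast on which the family was chosen, so they restate that choice and test nothing. The first count also depended on the processing. GABARAP was past that threshold in 15 of 15 alternatives, MAP1LC3B in 12 and GABARAPL1 in 7. The median log2 fold change of the 5 members was 0.17, beside 0.00 for all tested genes. Without the libraries in turn the GABARAP log2 fold change ran from 0.64 to 0.71. Over all 15 alternatives the GABARAPL1 value ran from 0.15 to 0.32, with 0.32 under effective-length offsets.

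**Figure D1:**
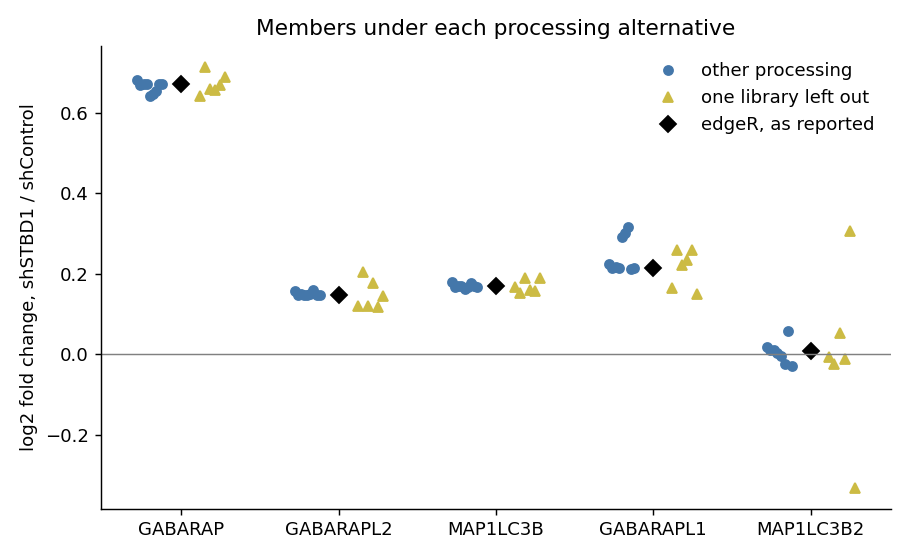
Log2 fold change of shSTBD1 over shControl (vertical axis) for 5 ATG8 members; black diamonds are the edgeR values reported, blue circles other processing of all 6 libraries, and yellow triangles fits with 1 library left out. GABARAP lies between 0.64 and 0.71 in every fit, GABARAPL2, MAP1LC3B and GABARAPL1 stay above 0, and MAP1LC3B2 spreads from -0.33 to 0.31.

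The summed level of the family was 272 ± 21.5 TPM in shControl and 374 ± 18.5 TPM in shSTBD1 (SD, n = 3). Of the difference of 102 TPM, GABARAP made up 85.8 TPM, or 84.0%. GABARAPL1, GABARAPL2 and MAP1LC3B contributed 5.65, 5.62 and 5.05 TPM. The share of GABARAP in the family sum was 56.1 ± 2.03% in shControl and 63.7 ± 1.43% in shSTBD1 (SD, n = 3). The share of GABARAPL2 was 19.0 ± 0.123% and 15.4 ± 1.01%, and that of MAP1LC3B was 15.2 ± 1.42% and 12.3 ± 0.132%. Without GABARAP, the other members summed to 112 to 124 TPM in shControl and 131 to 140 TPM in shSTBD1. The sums did not overlap with or without GABARAP. These shares depended on the division by length. In CPM, GABARAP was 28.4 ± 0.715% of the family in shControl and 35.9 ± 0.691% in shSTBD1 (SD, n = 3), and it made up 64.9% of the family's difference, followed by MAP1LC3B with 18.9%. In bulk RNA, a change in the make-up of the cells and a change in RNA per cell cannot be told apart.

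**Figure D2:**
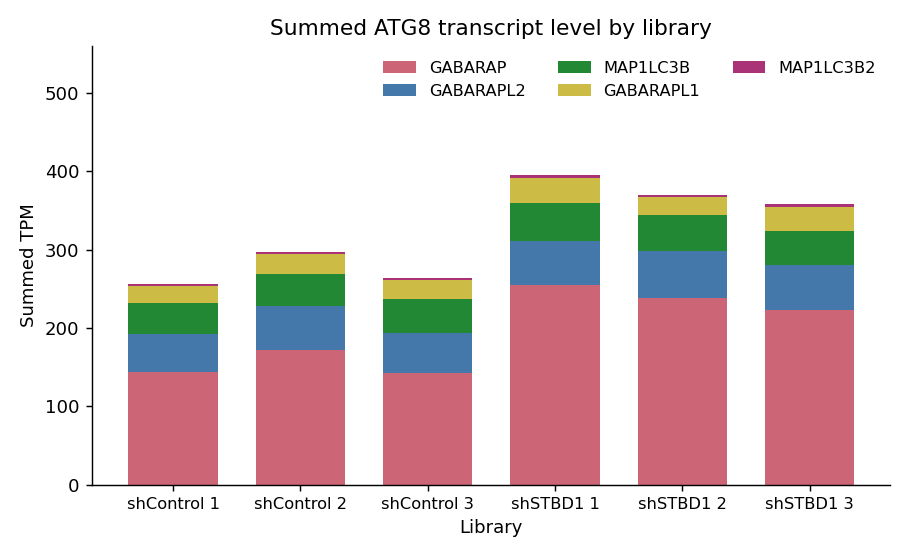
Summed TPM of the ATG8 members in each library (bars from 0), with colours for members. The bars reach 256 to 297 TPM in shControl and 359 to 395 TPM in shSTBD1, and most of the added height is GABARAP.

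The read assignment gave a posterior standard deviation for each count, which is above 0 where reads fit more than 1 gene. It was 0.853% to 1.87% of the count for GABARAP, at most 0.0682% for GABARAPL1, 0% for GABARAPL2, at most 0.0140% for MAP1LC3B and at most 2.40% for MAP1LC3B2. None of these passed the limit of 5%, which 5.49% of the 14422 genes with at least 10 counts in every library did. STBD1, the target, did pass it, at 7.35% to 10.5% of the count in the 6 libraries. For GABARAP, the reads were shared with an overlapping protein-coding gene on the same strand, ENSG00000262526, which received 0 counts in every library with posterior deviations of 12.5 to 21.5 counts. MAP1LC3B overlaps FBXO31 on the opposite strand, and the sources used here do not state whether counting used the strand. FBXO31 had 75.2 ± 3.01 CPM in shControl and 75.4 ± 0.920 CPM in shSTBD1 (SD, n = 3). Its log2 fold change was 0.00 ± 0.040 (SE).

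The 3′ UTRs of GABARAP and MAP1LC3B each held the 7 bases GTGTCAC once, which occur in the shControl hairpin. The windows of 30 bases are shown because the hairpin sequence differs between the groups. The 7 bases are in capitals, and both sites are written on the transcript strand of hg38.
GABARAP, chr17:7240575-7240604, minus strand: attgtcagtctGTGTCACatccagtgattg
MAP1LC3B, chr16:87403905-87403934, plus strand: gcagtgtaccaGTGTCACtctggagtacag

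The site began at base 261 of the 846-base GABARAP 3′ UTR and at base 819 of the 1677-base MAP1LC3B 3′ UTR. These are the 3′ UTRs of the canonical transcripts. Whether the transcripts measured held the sites was not tested. GABARAPL1, GABARAPL2, MAP1LC3A and MAP1LC3B2 held none. These 7 bases were picked out in earlier work on the same libraries. Among the 13031 tested genes with an annotated 3′ UTR, 1280 (9.82%) carried them. Of those carriers, 237 (18.5%) were called higher in shSTBD1, against 8.47% of the other genes. The carriers' median log2 fold change was 0.02, beside 0.00 for the other genes, and 29 carriers had a larger value than GABARAP. Because the bases were picked out with these libraries, these shares are a description and test nothing. Carriers called lower were not counted, and 3′ UTR length was not compared between carriers and other genes. In CPM, GABARAP and MAP1LC3B, which held the site, and GABARAPL1, which did not, were higher in shSTBD1. That contrast was the one on which the family was chosen. Neither TGTCACG, the bases that would pair with the guide seed of the shControl hairpin if its guide is the exact reverse complement of the listed target, nor GATTTCT, those for the shSTBD1 hairpin, occurred in any member's 3′ UTR. The part of these sites in the members' levels was not tested.

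Of 59 listed genes that process, bind or regulate ATG8 proteins, all 59 were tested. The edgeR test called 11 higher and 3 lower in shSTBD1 at an adjusted p under 0.05, which is 23.7% of the list against a background of 15.8% of all tested genes. Their median log2 fold change was 0.03. With limma on log2(TPM + 1), 0 of the 59 were called (12 at an unadjusted p under 0.05), and with effective-length offsets 2 were. Without shSTBD1 1 the count was 8, and without shSTBD1 3 it was 9. Calls over all tested genes fell in the same fits, from 2453 to 292 with limma on log2(TPM + 1) and 512 with effective-length offsets. They numbered 1570 without shSTBD1 1 and 1497 without shSTBD1 3. The lower counts are thus not particular to this list. The 3′ UTRs of 4 of the 59 held GTGTCAC, beside 9.82% of tested genes with an annotated 3′ UTR. Among the 4 were none of the 11 called higher and 1 of those called lower (TBC1D5). At that share, counts this small cannot set the called genes apart from other genes.

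None of the 4 ATG4 proteases passed the test in edgeR (1 at an unadjusted p under 0.05) or in DESeq2 (0 at an unadjusted p under 0.05). In edgeR, 15.8% of all tested genes were called, and at that share a list of 4 often holds no call. Their median log2 fold change was 0.06. ATG4B, which processes most ATG8 proteins, had 73.7 CPM in shControl and 74.2 CPM in shSTBD1, a log2 fold change of 0.01 ± 0.059 (SE). For ATG4A, which acts mainly on the GABARAP branch, the value was 0.17 ± 0.078. ATG4C and ATG4D had 0.10 ± 0.074 and 0.03 ± 0.066. The adjusted p of the 4 ran from 0.15 to 0.94.

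In the lipidation machinery, 2 of 9 genes rose (22.2%, beside 8.22% of all tested genes called higher and 15.8% called in either direction), none fell and the median was 0.05. ATG12, the ubiquitin-like part of the complex that directs lipidation, rose from 231 to 272 CPM (log2 fold change 0.24 ± 0.036, edgeR adjusted p = 0.00025). ATG16L2, a relative of the scaffold ATG16L1, rose from 16.6 to 21.4 CPM (0.37 ± 0.080, edgeR adjusted p = 0.0051). These were the 2 calls that held with effective-length offsets. ATG7, the activating enzyme, had a log2 fold change of -0.09 ± 0.063 and ATG3, the conjugating enzyme, 0.07 ± 0.046 (edgeR adjusted p = 0.38 and 0.32).

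Among the LIR cargo receptors, 6 of 20 genes rose, 1 fell and the median was 0.05. The 7 calls are 35.0% of the list, beside 15.8% of all tested genes. BNIP3 and BNIP3L, receptors of mitochondria, rose by log2 fold changes of 0.20 ± 0.044 and 0.17 ± 0.044 (edgeR adjusted p = 0.0060 and 0.017). BCL2L13, a further mitochondrial receptor, had 0.16 ± 0.047 (edgeR adjusted p = 0.026). NCOA4, the receptor of ferritin, had 0.16 ± 0.037 (edgeR adjusted p = 0.0086). TAX1BP1 and NBR1, receptors of ubiquitinated cargo, also rose, by 0.16 ± 0.038 and 0.13 ± 0.035. These last genes were past the limit of 4 per direction and were named after their values were seen. RTN3, a receptor of endoplasmic reticulum tubules, fell by 0.12 on the log2 scale (SE 0.036, edgeR adjusted p = 0.026). The calls of RTN3, BCL2L13 and NBR1 held in 7, 8 and 8 of 15 alternatives and were absent with DESeq2.

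In the LIR core and fusion proteins, 2 of 16 genes rose, 1 fell and the median was 0.02. These calls are 18.8% of the list, near the 15.8% of all tested genes. ULK1, the kinase that starts autophagy, rose from 35.4 to 41.3 CPM (0.22 ± 0.051, edgeR adjusted p = 0.0066). RB1CC1, a scaffold of the ULK1 complex, rose from 49.6 to 59.1 CPM (0.25 ± 0.049, edgeR adjusted p = 0.0023). TBC1D5, a RAB GTPase-activating protein, fell by 0.20 on the log2 scale (SE 0.051, edgeR adjusted p = 0.012).

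Of the 10 transcription factors listed as regulators of autophagy genes, 1 rose, 1 fell and the median was -0.08. The 2 calls are 20% of the list, near the same 15.8%. FOXO4 rose from 10.2 to 13.9 CPM (0.44 ± 0.093, edgeR adjusted p = 0.0041). NFE2L2, which drives antioxidant genes, fell by 0.14 on the log2 scale (SE 0.039, edgeR adjusted p = 0.025), a call that was absent in 9 of 15 alternatives.

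**Figure D3:**
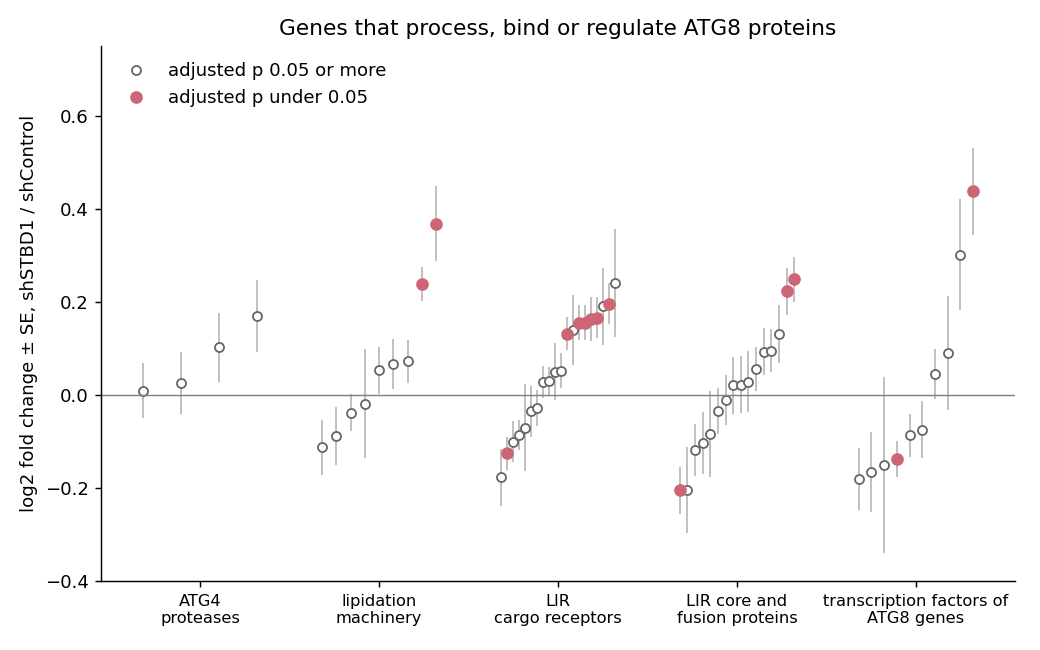
Log2 fold change ± SE of shSTBD1 over shControl (vertical axis) for 59 genes in 5 lists (horizontal axis), sorted within each list; filled points had an edgeR adjusted p under 0.05. The filled points number 0 in the ATG4 proteases, 2 in the lipidation machinery, 7 in the LIR cargo receptors, 3 in the core and fusion proteins and 2 in the transcription factors.

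RefSeq promoters on hg38, 300 bases around the annotated start, were found for 5 of 6 members, all but MAP1LC3A. None held CACGTG, the core shared by sites of the TFEB family, on either strand, which 7.26% of 35116 promoters did. None held TCACGTGA (0.980% of promoters), which contains CACGTG, or GTAAACA (3.42%), a forkhead motif. At these shares, a set of 5 promoters often holds none. The windows of GABARAPL1, MAP1LC3B and MAP1LC3B2 began at bases 10212627, 87392086 and 116559131. The GENCODE gene starts given above for these genes lay outside the windows searched.

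Likeness to other genes was measured as Pearson's r of log2 CPM over the 6 libraries, among 10122 other genes of at least 10 CPM on average (10123 for MAP1LC3B2). The points share the split into 2 hairpins, so for a member that separates the groups r follows that split. Closest to GABARAP were CPEB4, DDIT4 and AFAP1 (r = 0.999, 0.997 and 0.996). SMAGP, ARFGAP3 and STEAP2 were closest to GABARAPL1 (0.997, 0.994 and 0.993). For GABARAPL2 they were ZNF41, ATP5MC3 and ANXA7 (0.997, 0.995 and 0.982). MAP1LC3B was most like CDC42BPB, LHX2 and SPAG9 (0.995, 0.992 and 0.992). MAP1LC3B2 was most like RC3H2, CYP2S1 and SNTB2 (0.990, 0.989 and 0.959). At 12.1 to 27.0 expected counts per library, MAP1LC3B2 values carry large counting error. For every member, the highest r among so many genes over 6 libraries can be high by chance. No 2 members shared a gene among these.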

How the data were processed

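RNA of 3 shControl and 3 shSTBD1 HCT116 replicates was sequenced as NEBNext Ultra paired-end libraries. Per the labels, the authors aligned reads to hg38 with STAR 2.7.1a and counted them with RSEM 1.3.1. The deposited expected counts, TPM values, effective lengths and posterior standard deviations are per gene. Expected counts were rounded, and genes were kept by filterByExpr. Groups were compared with edgeR 4.0.16 (R 4.3.3) by TMM scaling and its quasi-likelihood test, adjusted over all 15566 tested genes. CPM values use the same scaling. The SE is the log2 fold change divided by the root of F. The alternatives used DESeq2 1.42.0, limma 3.58.1 on log2(TPM + 1) and log2(TPM + 0.1), no scaling, other filters, effective-length offsets, a replicate block, summed copies and each library left out. The scripts were tested on simulated data.

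The members and lists were chosen with earlier results of these data known. Named genes were the members, STBD1, family copies, ATG7, ATG3, the ATG4 proteases, up to 4 called genes per direction and list (TAX1BP1, NBR1 and the overlapping FBXO31 were added after their values were seen), and the 3 genes most like each member. Total expected counts of 17689097 to 21668274 set the depth, and the 3-count floor covers counting error only. The sample titles number the replicates, and the paper calls them biological replicates. Coding sequences, 3′ UTRs and coordinates came from GENCODE 44 and promoters from RefSeq. A planned comparison of protein sequences was replaced by coding sequences, and no protein was used here.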

Additional observations from a re-analysis of the deposited data

How the results depend on the processing

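The members' log2 fold changes kept their sign in all 15 alternatives for GABARAP (0.64 to 0.71), GABARAPL1 (0.15 to 0.32), GABARAPL2 (0.12 to 0.20) and MAP1LC3B (0.15 to 0.19). MAP1LC3B2 had no steady sign (-0.33 to 0.31). The GABARAPL1 value was 0.32 with effective-length offsets, against 0.21. With limma on log2(TPM + 1), limma on log2(TPM + 0.1) and effective-length offsets, the listed pathway genes called numbered 0, 0 and 2, against 14. Tested genes called in those fits numbered 292, 290 and 512, against 2453. DESeq2 called 1463 genes, but it was run on all 58395 genes with its own filter, against 15566 genes in edgeR. The STBD1 log2 fold change was -0.54 and -0.65 in the TPM fits with 1 and 0.1 added, with adjusted p of 0.065 and 0.067, and its adjusted p over all alternatives ran from 6.59e-10 to 0.067. GABARAP was the highest member in 6 libraries in TPM and in 3 in CPM. Leaving out each library gave 8 to 17 called pathway genes, 1409 to 2577 called tested genes and STBD1 values from -0.76 to -0.57. The lowest counts of tested genes came without shSTBD1 1 (1570), shSTBD1 2 (1409) and shSTBD1 3 (1497). With a limit of 10% in place of 5% for shared reads, 0 members passed either. The cause of these differences was not tested. The replicate numbers were not shown to pair the samples, with correlations of same-numbered deviations of 0.07, 0.07 and -0.01. With a replicate block, 14 pathway genes and 2579 tested genes were called and the GABARAP value was 0.67. Depth limits MAP1LC3A and MAP1LC3B2, at 0 to 3 and 12.1 to 27.0 expected counts.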
